A study of Rattus norvegicus with 2 samples.

Results

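The developmental transcription factors of rat lung were taken as every gene whose symbol in the platform annotation is a *Hox*, *Fox*, *Sox*, *Tbx*, *Gata*, *Klf* or *Nkx* name followed by its number, which gave 100 genes of 14217 measured. They were read by 165 probe sets, a probe set being the group of short probes that reports 1 transcript. The 7 families held 30 *Fox*, 24 *Hox*, 14 *Sox*, 14 *Klf*, 6 *Tbx*, 6 *Gata* and 6 *Nkx* genes. The study hybridised biotin-labelled cRNA from total RNA of rat lung to Affymetrix arrays, and its question was how well expression values repeat between people. A different experimenter handled each of the 2 arrays, and the values are given below as those of experimenter 1 and then of experimenter 2. No strain, age, sex, treatment or number of animals is given in the labels, nor whether both started from the same lung. With 1 array for each experimenter there is no replicate error, so no difference below carries a test or a p-value, and experimenter, animal and array cannot be told apart.

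These families bind DNA through a shared fold in each case: a homeodomain in *Hox* and *Nkx* proteins, a winged helix in *Fox* proteins, an HMG box in *Sox* proteins, a T-box in *Tbx* proteins and zinc fingers in *Gata* and *Klf* proteins. *Hox* genes lie in 4 clusters, and their order along a cluster follows the head-to-tail order in which the embryo uses them. In lung, *Nkx2-1* with *Foxa2* sets up the epithelium, *Foxf1*, *Tbx4* and *Hoxa5* act in the mesenchyme, and *Sox17*, *Sox18* and *Klf2* act in the endothelium.

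Signals are log2 RMA values, the authors' deposited measure after background correction and normalization, and a gene is given by its brightest probe set. Over all probe sets other than controls, the median was 6.32 for experimenter 1 and 6.28 for experimenter 2, and the upper quartile was 8.22 and 8.18. RMA gives no detection limit, so a low value shows a dim probe set and not that a gene is silent. Probe sets differ in how strongly they bind, so the orders given below are orders of signal and not of transcript number. All 9 lung markers measured, among them *Sftpc* and *Pecam1*, lay at or above the upper quartile on both arrays. None of the 4 heart, 4 liver, 3 kidney, 3 brain and 3 skeletal muscle markers reached the median on both arrays. Of the peripheral nerve markers only *Mbp* was measured, at 9.11 and 8.51, above the upper quartile on both, and no thymus marker was measured.

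The families split into a bright and a dim part. Of the 100 members, 47 lay at or above the median on both arrays, against 66.1% of all genes, and 31 lay below the lower quartile on both, against 14.1% of all genes. *Klf* genes were the brightest family, with 12 of 14 at or above the median and 0 of 14 below the lower quartile. *Hox* genes had 6 of 24 at or above the median and 14 of 24 below the lower quartile. The 14 *Klf* genes had 35 probe sets and the 24 *Hox* genes 26, so the brightest was chosen from more per gene in *Klf*. What this adds to the contrast was not tested. The counts at or above the median were 15 of 30 for *Fox*, 6 of 14 for *Sox*, 4 of 6 for *Tbx*, 3 of 6 for *Gata* and 1 of 6 for *Nkx*. The order of signal was nearly the same on both arrays, with a Spearman correlation of 0.994 across the 100 members. Across all genes it was 0.993, so the members repeated like the array as a whole. Members share their probes between the arrays and are not replicates.

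**Figure D1:**
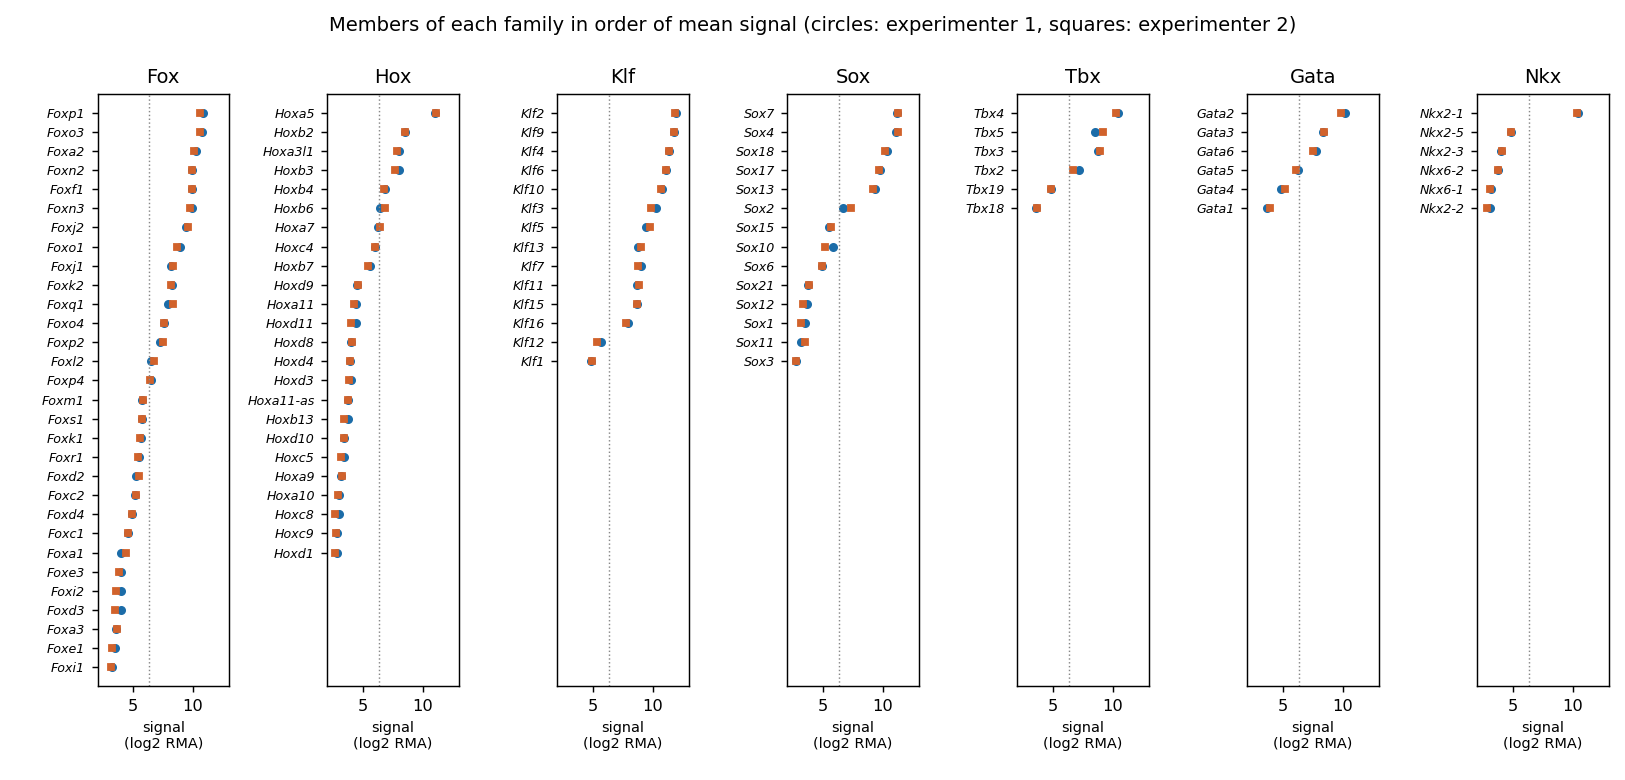
Signal (log2 RMA) of each of the 100 members on the array of experimenter 1 (circles) and of experimenter 2 (squares), 1 panel a family, with genes ordered by the mean of both arrays; the dotted line is the median of all probe sets of experimenter 1 (6.32). *Klf* genes lie mostly to the right of the line and *Hox* genes mostly to its left.

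Within a family, neighbours in the order of mean signal were called separable where the gap between them was larger than either gene's own difference between the arrays and the order was the same on both. Of 93 neighbouring pairs, 52 were separable, and 21 changed order between the arrays. All 5 *Gata* pairs were separable, as were 10 of 13 *Klf* pairs and 4 of 5 in both *Tbx* and *Nkx*. In *Sox* 8 of 13 pairs were separable, in *Fox* 13 of 29 and in *Hox* 8 of 23, where many genes lie close together at low signal.

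In the HoxA and HoxB clusters, the measured genes nearest the anterior end were bright and most of those nearest the posterior end dim. *Hoxa5*, which acts in lung mesenchyme and airway patterning, measured 11.004 for experimenter 1 and 11.06 for experimenter 2, at percentiles 95.7 and 96.1 of all genes. *Hoxa7*, the next gene measured in its cluster, had 6.23 and 6.42. Further along the same cluster *Hoxa9* measured 3.13 and 3.21 and *Hoxa10* 2.94 and 2.86. *Hoxa11*, at the far end of the measured genes, measured 4.40 and 4.18. Signal thus stepped down along HoxA on both arrays up to *Hoxa10* and was higher again at *Hoxa11*.

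In HoxB, signal was lower at nearly every step from anterior to posterior. *Hoxb2*, the most anterior gene measured, had 8.51 and 8.48. *Hoxb3* measured 7.97 and 7.67, and *Hoxb4* 6.81 and 6.70. *Hoxb6* measured 6.41 and 6.80, *Hoxb7* 5.53 and 5.36, and *Hoxb13*, the most posterior, 3.72 and 3.37. On the array of experimenter 1 all 5 steps from 1 measured gene to the next went down. On that of experimenter 2 it was 4 of 5, the exception being *Hoxb6* above *Hoxb4*. By the rule above, *Hoxb4* and *Hoxb6* were not separable.

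HoxC and HoxD were dim throughout. *Hoxc4* was the brightest of both clusters at 5.9998 and 5.96, and a second probe set of it had 3.74 and 3.998. *Hoxc5* measured 3.39 and 3.12, *Hoxc8* 2.98 and 2.62, and *Hoxc9* 2.84 and 2.74. The 7 *Hoxd* genes ran from a mean of 2.74 for *Hoxd1* to 4.54 for *Hoxd9*, with no downward order along the cluster. *Hoxd3* measured 3.97 and 3.79, *Hoxd4* 3.92 and 3.90, *Hoxd8* 3.96 and 4.08, and *Hoxd11* 4.35 and 4.01. None of the 11 genes measured in HoxC and HoxD reached the median on both arrays, against 5 of 11 in HoxA and HoxB.

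A paralog group is the set of genes at the same place in the 4 clusters. In groups 1 to 4, 3 genes of HoxB and none of HoxA were measured, with mean signals from 6.76 to 8.50. The 4 genes of HoxA and HoxB in groups 5 to 8 ran from 5.45 to 11.03, the highest being *Hoxa5*, so the brightest gene was not in the most anterior groups. The 4 in groups 9 to 13 ran from 2.90 to 4.29, below all the others. The numbers are small because 17 of the 39 *Hox* genes that the RefSeq gene table lists had no probe set named for them. The other members were *Hoxa3l1*, at 7.95 and 7.80, and the noncoding *Hoxa11-as*, at 3.72 and 3.76. *Hoxa5*, *Hoxa3l1*, *Hoxc4* and *Hoxc5* overlap another protein-coding *Hox* gene in that table. Over all families, 13 members overlap a protein-coding gene, among them *Klf2*, *Klf4*, *Klf9*, *Foxp1*, *Tbx2* and *Tbx4*. Whether the probe sets of these members also read the other gene was not tested.

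**Figure D2:**
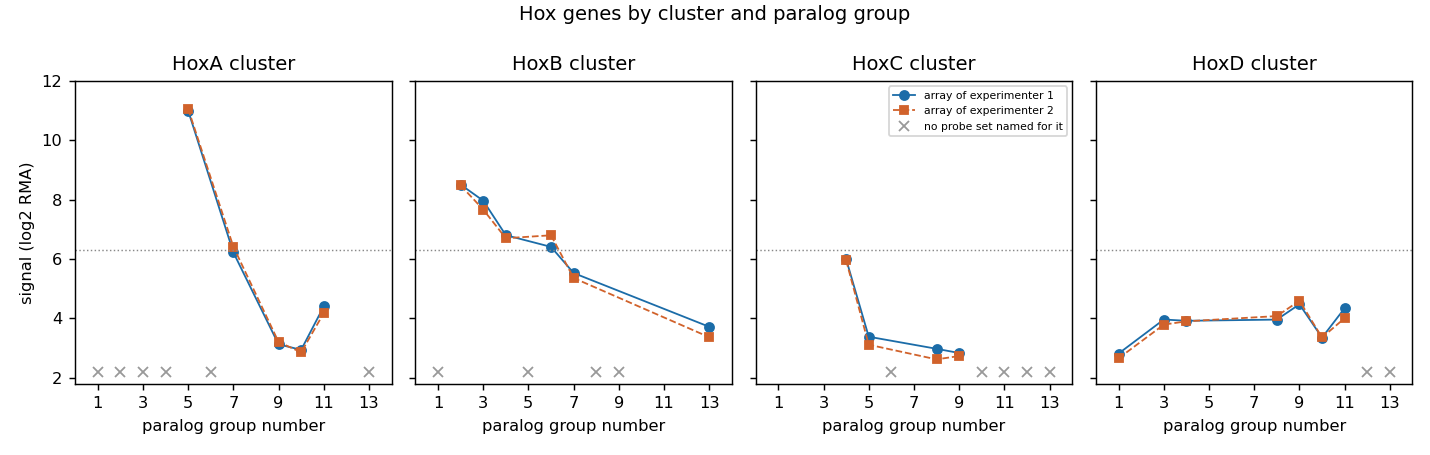
Signal (log2 RMA) of the 22 measured genes of the 4 *Hox* clusters against their paralog group number, for experimenter 1 (circles) and experimenter 2 (squares); crosses mark genes with no named probe set, and the dotted line is the median of all probe sets of experimenter 1 (6.32). Measured genes of HoxB go from high to low, those of HoxA do so up to *Hoxa10*, and HoxC and HoxD stay below the line.

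Among *Nkx* genes 1 stood far above the rest. *Nkx2-1*, the thyroid and lung lineage factor that acts on surfactant genes, measured 10.46 and 10.32. The next, *Nkx2-5*, a heart factor, measured 4.84 and 4.81, and *Nkx2-3*, known from gut mesenchyme and spleen, 3.94 and 4.07. *Nkx6-2* measured 3.70 and 3.74, *Nkx6-1*, a factor of pancreatic beta cells, 3.11 and 3.04, and *Nkx2-2*, a factor of neural tube and pancreas, 3.08 and 2.81. The gap between *Nkx2-1* and *Nkx2-5* was the widest that separated 2 neighbours in the order of this family, and the last 2 were not separable.

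The forkhead genes formed a long gradient led by broadly used members. *Foxp1*, which restrains goblet cell fate in airway epithelium and is also active in lymphocytes, measured 10.86 and 10.59. *Foxo3*, a target of insulin signalling, measured 10.75 and 10.59, and these 2 exchanged places between the arrays. *Foxa2*, the partner of *Nkx2-1*, measured 10.23 and 10.05 and came next on both. By mean signal *Foxn2* followed at 9.947 and 9.88, then *Foxf1*, needed for lung capillaries and mesenchyme, at 9.90 and 9.91. *Foxn2* and *Foxf1* also exchanged places between the arrays. *Foxn3*, the next by mean at 9.952 and 9.72, lay above both for experimenter 1.

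Paralogs of *Foxa2*, *Foxp1* and *Foxo3* lay lower. *Foxa1*, often described as acting with *Foxa2*, measured 3.98 and 4.37, and *Foxa3*, better known from liver and goblet cells, 3.55 and 3.64; each had a single probe set. *Foxp2* measured 7.24 and 7.50 and *Foxp4* 6.46 and 6.40. *Foxo1* measured 8.87 and 8.63. *Foxj1*, the master factor of motile cilia, measured 8.15 and 8.30, which is between the median and the upper quartile for experimenter 1 and above the upper quartile for experimenter 2. *Foxc1* and *Foxc2*, factors of vessels and lymphatics, measured 4.54 and 4.56 and 5.16 and 5.25. At the low end stood *Foxe1*, a thyroid factor, at 3.43 and 3.17, and *Foxi1*, a factor of ionocytes, at 3.21 and 3.09.

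The brightest *Sox* genes were the endothelial SoxF group and *Sox4*. *Sox7* measured 11.17 and 11.26, *Sox18* 10.30 and 10.16, and *Sox17* 9.72 and 9.70, so all members of this group lay above the upper quartile. *Sox4*, used in many progenitor and lymphoid cells, measured 11.10 and 11.22, and was not separable from *Sox7*. *Sox13* measured 9.29 and 9.13. After *Sox13* came a gap to *Sox2*, the factor of proximal airway epithelium, at 6.69 and 7.28. *Sox10*, of Schwann cells, measured 5.82 and 5.16, *Sox21* 3.75 and 3.81, *Sox1*, a neural factor, 3.48 and 3.13, and *Sox3* 2.72 and 2.72.

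*Klf* genes held the top of the whole set. *Klf2*, which blood flow induces in endothelium, measured 11.95 and 11.82, at percentiles 98.5 and 98.3 of all genes. *Klf9*, a glucocorticoid and thyroid hormone target, measured 11.74 and 11.75. *Klf4* measured 11.34 and 11.37, *Klf6*, an early response gene, 11.06 and 11.05, and *Klf10*, induced by TGF-beta, 10.79 and 10.68. This order of 5 was the same on both arrays, and each of its neighbouring pairs was separable. *Klf5*, an epithelial factor, measured 9.44 and 9.72, *Klf13*, a factor of T cells among others, 8.77 and 8.99, and *Klf1*, the erythroid factor, 4.77 and 4.86.

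*Tbx4*, which marks lung mesenchyme, led the T-box genes at 10.40 and 10.28. *Tbx5*, its partner in lung bud growth, measured 8.53 and 9.20 and *Tbx3* 8.77 and 8.90, so these 2 exchanged places between the arrays. *Tbx2* measured 7.12 and 6.66. *Tbx19*, a pituitary factor, measured 4.78 and 4.80, and *Tbx18* 3.52 and 3.60. The 4 genes of the *Tbx2* to *Tbx5* group thus all lay above the median on both arrays, and the other 2 below it.

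*Gata* genes kept 1 order on both arrays. *Gata2*, of endothelium and mast cells, measured 10.19 and 9.80, and *Gata3*, of T cells and innate lymphoid cells, 8.34 and 8.39. *Gata6*, which acts in epithelium and smooth muscle, measured 7.71 and 7.51, and *Gata5* 6.21 and 6.09. *Gata4*, a factor of heart and gut, measured 4.79 and 5.11, and *Gata1*, of red cells, 3.65 and 3.92.

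Sorted by the lineage each gene is known for, endothelial factors had the largest share at or above the upper quartile on both arrays. Over all genes, 37.6% lay at or above the upper quartile on both arrays. Of 9 endothelial genes, all measured, 7 did so, the others being *Foxc1* and *Foxc2*. Of 8 mesenchymal genes measured, 5 did, namely *Foxf1*, *Tbx3*, *Tbx4*, *Tbx5* and *Hoxa5*. Of 12 epithelial genes measured, 4 did, namely *Nkx2-1*, *Foxa2*, *Foxp1* and *Klf5*. Of 6 genes of blood and immune cells measured, 3 did, namely *Gata3*, *Klf13* and *Sox4*. The shares of the epithelial list (33.3%) and the blood and immune list (50%) lay near that of all genes. Of 10 factors known chiefly from other organs, none did, and *Foxl2*, an ovarian factor, at 6.50 and 6.73, was the 1 that reached the median on both arrays. In whole lung RNA, fewer cells of a type and less RNA per cell cannot be told apart. These lists sort genes by their best-known site, and several members act in more than 1 lineage. At or above the median on both arrays, the mesenchymal list led with 87.5%, against 77.8% of the endothelial list. All shares rest on the brightest probe set of each gene. The second brightest lay below the median for *Sox17* (4.72 and 3.66), *Gata2* (4.38 and 4.08) and *Foxo1* (5.08 and 5.08). That of *Klf2* (8.999 and 9.24) lay above the upper quartile.

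Members that are neighbours in the order of protein-coding genes had like signals in some pairs and unlike ones in others. In the RefSeq gene table of assembly GRCr8, 7 pairs of members outside the *Hox* clusters lie next to each other or with 1 protein-coding gene between them. *Tbx5* and *Tbx3* lie side by side and had means 0.024 apart. *Tbx2* and *Tbx4* also lie side by side and had means 3.45 apart. The means of *Klf5* and its neighbour *Klf12* (5.62 and 5.30) were 4.12 apart, and those of *Foxf1* and *Foxc2* 4.70 apart. The means of *Foxc1* and *Foxq1* (7.94 and 8.30) were 3.57 apart, and those of *Foxd2* (5.26 and 5.51) and *Foxe3* (3.95 and 3.76) 1.53 apart. The widest gap was that of *Nkx2-2* and *Foxa2*, with 1 protein-coding gene between them and means 7.20 apart. These gaps lie between probe sets of different genes. In members with several probe sets, the brightest and the dimmest were a median of 2.70 apart, and the brightest and second brightest 1.39. The gaps between neighbours thus do not measure a difference in transcript number.

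The promoters of this last pair are shown because the pair had the widest gap in signal among the neighbours. Both run from 250 bases before to 50 bases after the start of the gene, are read 5′ to 3′ on the minus strand, and come from RefSeq on GRCr8. Capitals mark CpG dinucleotides, the site of DNA methylation.
Foxa2, chr3:155927459-155927758: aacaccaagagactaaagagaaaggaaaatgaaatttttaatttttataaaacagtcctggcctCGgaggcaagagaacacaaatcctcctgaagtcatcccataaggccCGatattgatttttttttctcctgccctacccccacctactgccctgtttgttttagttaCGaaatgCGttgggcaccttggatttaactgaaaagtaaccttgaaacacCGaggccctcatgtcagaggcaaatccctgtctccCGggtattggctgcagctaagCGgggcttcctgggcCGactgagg
Nkx2-2, chr3:155075573-155075872: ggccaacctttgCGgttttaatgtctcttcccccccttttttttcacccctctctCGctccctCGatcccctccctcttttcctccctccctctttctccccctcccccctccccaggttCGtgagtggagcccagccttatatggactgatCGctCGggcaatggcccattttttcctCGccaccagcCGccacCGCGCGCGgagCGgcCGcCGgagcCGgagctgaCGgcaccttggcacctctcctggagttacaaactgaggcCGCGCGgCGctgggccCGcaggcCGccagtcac
The bright *Foxa2* had 8 CpG in its window and the dim *Nkx2-2* had 23. The table held a promoter for 63 of the 100 members. Their median was 20 CpG in 300 bases, against 19 over the promoters of all measured genes. The 26 members at or above the median signal on both arrays had a median of 21.5 CpG, and the other 37 had 19. Both sets ran up to 55. CpG counts of the window thus overlapped widely between bright and dim members.

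Between the arrays, 3 members differed by at least 1.5-fold, 2 higher and 1 lower for experimenter 2. Over all 14217 genes 3.24% did so, 1.93% higher and 1.31% lower, so the share among members was close to the background. *Tbx5* was 1.59-fold higher for experimenter 2 (8.53 and 9.20) and *Sox2* 1.51-fold higher (6.69 and 7.28). *Sox10* was 1.58-fold lower (5.82 and 5.16). No member was 2-fold apart, against 0.274% of all genes (0.232% higher and 0.0422% lower). The median difference of the members, experimenter 2 minus experimenter 1, was -0.028 on the log2 scale, against -0.049 for all genes, and the SD of their differences was 0.23, against 0.26.

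Family medians of the difference stayed near 0. They were -0.092 for *Hox*, -0.050 for *Fox*, -0.013 for *Sox*, 0.0014 for *Klf*, 0.053 for *Tbx*, -0.035 for *Gata* and -0.049 for *Nkx*. Next after the 3 members past 1.5-fold came *Tbx2*, at -0.46 or 1.37-fold, then *Foxd3*, at -0.44 (3.93 and 3.49), *Klf3*, at -0.40 (10.25 and 9.85), *Foxi2*, at -0.40 (3.97 and 3.57), *Foxa1*, at 0.39, *Hoxb6*, at 0.39, and *Gata2*, at -0.39. Other probe sets of *Tbx2* differed by only -0.044 and -0.12, of *Klf3* by -0.21 and -0.12, and that of *Gata2* by -0.30. *Foxd3*, *Foxi2*, *Foxa1* and *Hoxb6* had 1 probe set each. At the other end 37 of the 100 members differed by less than 0.1, against 4768 of all 14217 genes, a similar share. By the brightest probe set they included *Klf9*, *Klf6*, *Foxf1*, *Sox17* and *Hoxa5*. Another probe set differed more for *Klf9* (-0.72), *Klf6* (-0.58), *Foxf1* (-0.33) and *Sox17* (-1.06), while *Hoxa5* had only 1. *Sox10* and *Foxd3*, the nerve lineage factors measured, were both lower for experimenter 2, as were 8349 of all 14217 genes. All 4 liver and all 3 brain markers were also lower, though dim, down to -0.43 and -0.56. The heart, kidney and skeletal muscle markers, also dim, were not all lower. Lower were 3 of 4 heart, 2 of 3 kidney and 2 of 3 skeletal muscle markers. By the brightest probe set, all 6 factors of blood and immune cells were higher, by up to 0.27, as were 5842 of all 14217 genes. Their second brightest was lower for *Gata3* (-0.19) and *Sox4* (-0.23), and the other factors had 1 probe set each. *Gata1*, *Klf1* and *Hoxa9* were dim, below the median on both arrays. None of these liver, brain, heart, kidney, skeletal muscle, or blood and immune genes was 1.5-fold apart by its brightest probe set. *Mbp*, the nerve marker given above, differed by -0.60 by the brightest of its 3 probe sets, past 1.5-fold. Its part in the result was not tested.

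**Figure D3:**
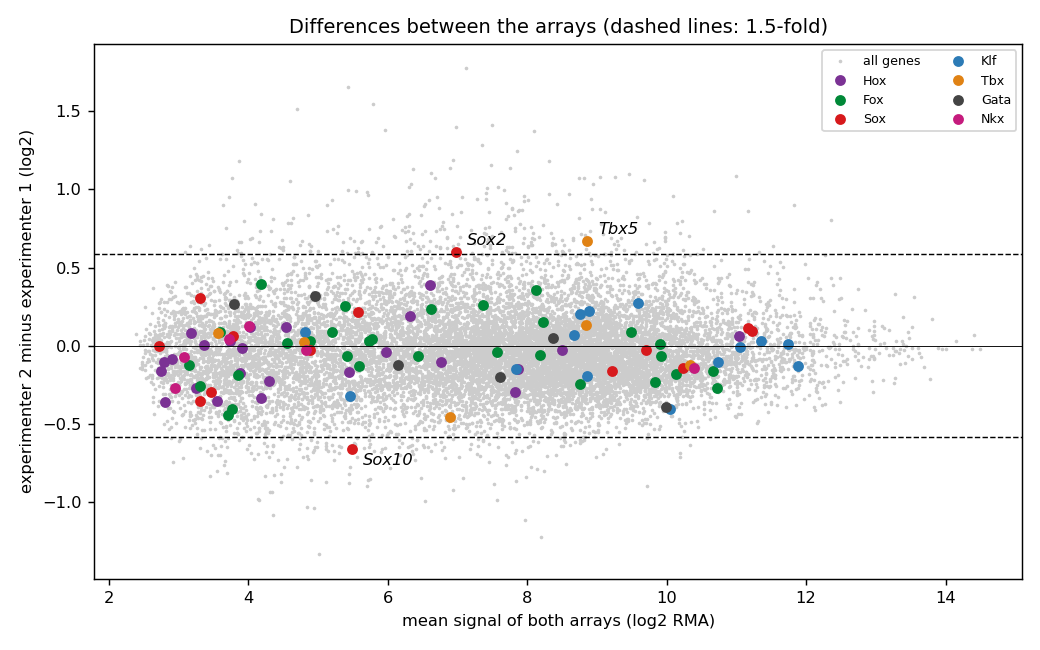
Difference between the arrays (experimenter 2 minus experimenter 1, log2) against mean signal for all 14217 genes (grey) and the members, coloured by family; dashed lines mark 1.5-fold. *Tbx5* and *Sox2* lie above the upper line and *Sox10* below the lower, while the other members lie between the lines.

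Members with several probe sets showed how far a level and a difference depend on the probes. Of the 100 members, 32 had at least 2 probe sets, and the dimmest lay a median of 2.70 under the brightest on the log2 scale, up to 7.94 for *Klf9*. For 14 of the 32 the range was over 4. *Klf2*, the brightest member, had other probe sets with means of 9.12, 8.16, 6.93 and 3.98. *Sox4* had 7 probe sets, whose means ran from 4.40 to 11.16. *Klf3* had 3 probe sets that lay within 0.29. A gene's place in the orders above thus depends on the probe set that stands for it.

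Differences between the arrays often did not repeat across the probe sets of a gene. The brightest and the second brightest differed in the same direction for 17 of 32 genes, and across these genes the differences had a Pearson correlation of -0.089 and a Spearman correlation of -0.11. *Sox2* had 0.60 by its brightest probe set and -0.45 by the next (7.15 and 6.70), at almost the same level. *Klf5* had 0.27, -0.44, 0.45 and 0.58 by its 4 probe sets. *Sox4* ran from -0.60 to 0.49. By contrast, *Gata6* had -0.20 and -0.21, *Gata2* -0.39 and -0.30, *Gata4* 0.32 and 0.21, and all 4 probe sets of *Klf7* were lower, from -0.39 to -0.19. *Tbx5* and *Sox10* had 1 probe set each, so their differences could not be checked in this way.

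Over single probe sets, 7 of 165 were at least 1.5-fold apart, which is 4.24%, against 4.35% of all probe sets. Besides those of *Tbx5*, *Sox2* and *Sox10*, they were a probe set of *Sox17* at -1.06 (4.72 and 3.66), of *Tbx3* at -0.81 (7.20 and 6.39), of *Klf9* at -0.72 (7.05 and 6.33) and of *Sox4* at -0.60. For each of the last 4 genes the brightest probe set differed by at most 0.13.

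**Figure D4:**
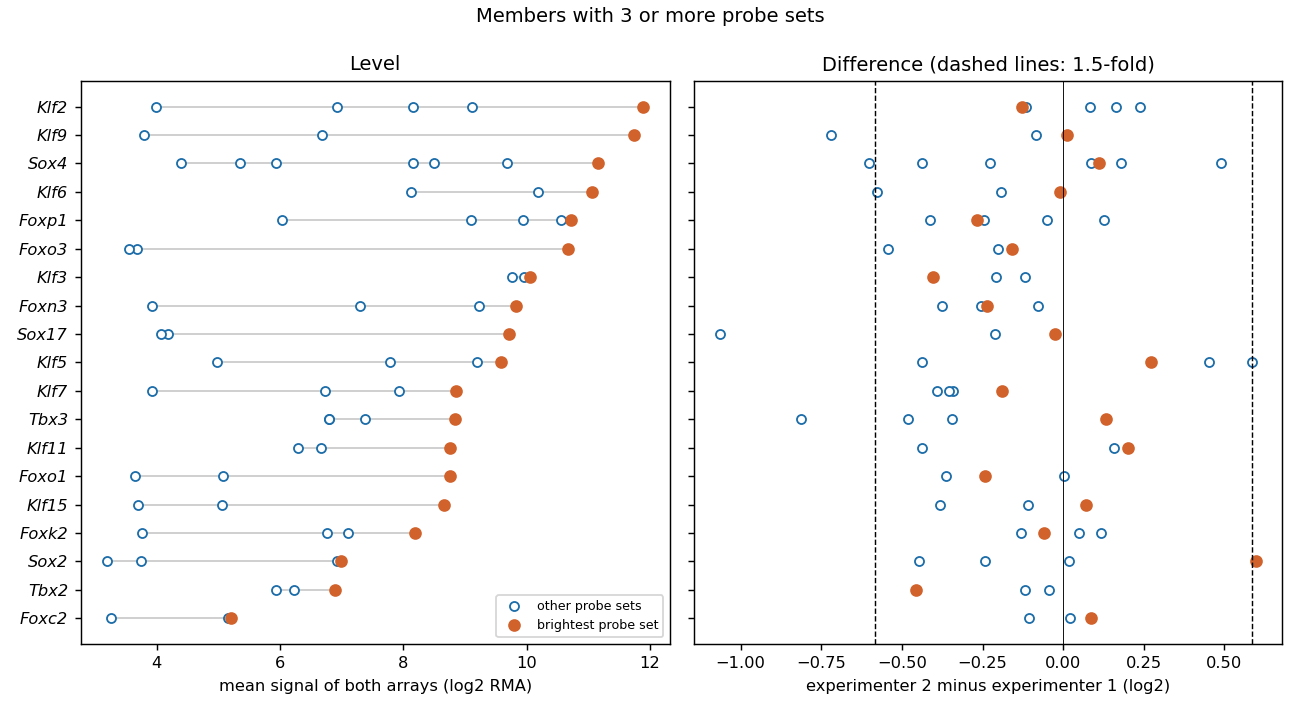
Mean signal (left) and difference between the arrays (right, experimenter 2 minus experimenter 1, log2) of every probe set of the 19 members with 3 or more; filled points are the brightest probe set of a gene, and dashed lines mark 1.5-fold. Levels of 1 gene spread over up to 7.94 (*Klf9*), and for *Sox2*, *Sox4* and *Klf5* the differences reach at least 0.3 on both sides of 0. Other genes, among them *Klf2* and *Foxp1*, also have differences of both signs, with at least 1 side under 0.3.

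Genes that work with these factors differed by list. Of 45 cofactors, retinoic acid genes and other lung developmental factors measured, 37 lay at or above the median on both arrays, or 82.2% against 66.1% of all genes. All 8 *Hox* cofactors did, among them *Meis1*, at 9.82 and 9.80, and *Pbx2*, at 9.90 and 9.88, which bind DNA with Hox proteins. Of 5 *Gata* cofactors 3 did, or 60%, near the share of all genes. *Lmo2* and *Tal1*, partners of Gata factors in endothelium and blood, measured 9.96 and 9.80 and 9.49 and 9.45. The Friend of GATA genes *Zfpm1* and *Zfpm2* measured 5.98 and 5.47 and 5.73 and 6.03, below the median. Retinoic acid acts upstream of anterior *Hox* genes, and 8 of its 12 genes measured lay at or above the median, or 66.7%, close to the share of all genes. Its synthesis enzyme *Aldh1a1* measured 11.70 and 11.54, its receptor *Rarb* 9.25 and 9.50, and its degrading enzyme *Cyp26b1* 9.83 and 10.55. A second degrading enzyme, *Cyp26a1*, measured 3.81 and 4.35, and *Rxra*, *Crabp1* and *Crabp2* also lay below the median.

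Among these 45 genes 2 were at least 1.5-fold higher for experimenter 2 and 0 lower, against 1.93% and 1.31% of all genes. *Cyp26b1* differed by 0.72, but by -0.33 by its other probe set (8.54 and 8.22). *Meis2*, a Hox cofactor with a single probe set, differed by 0.69 (8.31 and 9.003). Their median difference was -0.060, against -0.049 over all genes.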

How the data were processed

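The authors deposited log2 RMA signals, 1 value per probe set and array; RMA is named in the submitters' processing notes, without a version. The log2 base was taken from the range of the values. RNA was purified on silica columns and labelled with biotin, per the labels' protocols. From 31099 probe sets, 57 controls were removed. Of the remaining 31042, 20826 had 1 gene symbol, and 20758 of these were updated through Entrez identifiers to the RefSeq table of GRCr8, as were 99 of the 100 members. A gene took its probe set with the highest mean. Differences are experimenter 2 minus experimenter 1, with 1.5-fold as the rule of size. Values were given for the 5 brightest and the dimmest genes of each family, members 1.5-fold apart and lineage list members. Genes whose probe sets differ by 0.3 both ways were given too. Genome neighbours, members next after 1.5-fold, *Foxn3* and examples of probe sets that differed alike were named after their values were seen. The members and lists were chosen with earlier results of these data known. The number of arrays limits the precision. Alternatives covered probe set choice, centring, loess (fraction 0.3), quantile normalization, level filters and a 2-fold threshold. Python 3.11.15, numpy 2.4.6, pandas 2.3.3, scipy 1.17.1, statsmodels 0.14.6 and matplotlib 3.10.9 were used, and the scripts were tested on simulated data.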

Additional observations from a re-analysis of the deposited data

How the results depend on the processing

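No paired analysis was possible because there is 1 array on each side, and leaving 1 out would leave nothing to compare. With all probe sets of a gene averaged, 1 member was at least 1.5-fold higher for experimenter 2 and 1 lower. With the second brightest probe set it was 1 higher and 3 lower, the last being *Sox10*, *Sox17* and *Klf9*. Centring, loess and quantile normalization left 2 higher and 1 lower. With members at or above the median level (48) it was 2 and 0, with the upper 25% (33) 1 and 0, and at 2-fold 0 and 0, since those settings test fewer genes or a larger fold. *Sox2* turned to -0.019 with the mean over probe sets and to -0.45 with the second brightest; the cause was not tested. The Spearman correlation between the arrays was 0.988 with the second brightest probe set, 0.988 at or above the median level and 0.974 in the upper 25%. The median difference of the members ran from -0.076 to 0.020 over its alternatives, and scaling moved the members from 44 higher and 55 lower to 53 and 47. The median of all genes was -0.049 as deposited and -0.015 to 0.0015 after scaling. Family medians changed sign under at least 1 alternative, except that of *Hox*, which ran from -0.092 to -0.038. Neighbours not separable numbered 40 to 42 of 93, and members at or above the median 38 to 47, with 32 at or above the upper quartile. Members whose signal is low have no stated background limit.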
